A study of Mus musculus with 15 samples.

Results

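A set of 10 genes that neurons switch on in response to activity, and whose products act outside the nucleus, was followed in RNA from the mouse thalamus after repeated cocaine or saline: Vgf, Scg2, Pcsk1, Nptx1, Nptx2, Homer1, Nrn1, Inhba, Rgs2 and Rgs4. They were selected by name rather than by a threshold on their values, though with earlier results of these data known, and all 10 were present in every table of 25080 listed genes. All 10 also passed the filter on low values (at least 1 TPM in at least 3 libraries), as did 13471 genes in all. Inhba passed it narrowly, through 3 libraries only: control cocaine replicate 1 and cKO saline replicates 1 and 4. A member that passes a filter through some groups only is more likely to differ between groups, so its results are given with that limit.

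Synaptic activity raises calcium in a neuron, and calcium-dependent kinases then activate transcription factors such as CREB, which binds the cAMP response element (CRE). Immediate early genes such as Fos and Egr1 answer within minutes and encode mostly transcription factors. The genes described here encode effectors: granule proteins and neuropeptide precursors, synaptic organizers, growth factors and regulators of G protein signalling. Thalamic relay neurons are mostly glutamatergic and use the vesicular transporter Vglut2 (Slc17a6).

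The mice were males of a floxed Maged1 line on a C57Bl6J background, 2 to 4 months old. Controls were titled Maged1 WT, and the study's methods name floxed littermates as the comparison for cKO males. Maged1-cKO mice also carried a Vglut2-Cre driver, so that Maged1 was inactivated only in Vglut2 cells. After 3 days of saline habituation, mice received cocaine (20 mg/kg, intraperitoneal) or saline for 5 days, and the whole thalamus was dissected without cell sorting. The study's methods describe 15 independent samples and give sample sizes as numbers of animals. They do not say whether a library came from 1 mouse or from a pool. The methods count 8 samples with cocaine, whereas 8 of the 15 samples here are titled saline. Of 15 samples, 14 libraries were analysed: 4 from controls given saline, 4 from controls given cocaine, 4 from cKO mice given saline and 2 labelled as cKO mice given cocaine. The deposited values are TPM, transcript abundances corrected for transcript length and scaled to the library total, which can be compared between genes. They were divided here by a trimmed-mean (TMM) factor for each library, and levels below are these scaled TPM unless stated.

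Maged1, the targeted gene (chrX:94535474-94542143, minus strand), went against the genotype labels of the cocaine libraries. After saline, controls had a scaled TPM of 153, 167, 150 and 151, and cKO mice of 77.4, 76.6, 68.2 and 64.6. After cocaine, libraries with the control label had 58.5, 87.7, 77.3 and 70.7, whereas those with the cKO label had 154 and 174. Low values were thus those of the cKO saline and control cocaine groups, and high values those of the control saline and cKO cocaine groups. After saline, Maged1 was lower in cKO than in control mice (log2 difference -1.11 ± 0.10 (SE), n = 4 and 4, limma, Benjamini-Hochberg adjusted p = 0.00116) and higher under the cKO label after cocaine (1.16 ± 0.13 (SE), n = 2 and 4, limma, Benjamini-Hochberg adjusted p = 0.00356). In addition, the genotype tag of 4 saline samples contradicts their title, and titles were followed here. These are control saline replicates 3 and 4 and cKO saline replicates 1 and 2. Their Maged1 values (150, 151, 77.4 and 76.6) lay on the side of the title, not of the tag. Every comparison that uses the genotype of a cocaine library therefore rests on a label that Maged1 contradicts, while the comparison of all cocaine with all saline libraries does not use it.

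The thalamic identity of the tissue was checked with 8 thalamic neuron markers, whose summed scaled TPM lay between 461 and 678 in all 14 libraries. Libraries stood apart by markers of neighbouring tissue. Control cocaine replicate 1 had a habenula marker sum of 115, against 6.57 to 60.0 elsewhere. In cKO saline replicate 4 the cortex and hippocampus sum was 113 and in control cocaine replicate 1 it was 98.6, against 49.7 to 74.7 elsewhere. Of the sum in control cocaine replicate 1, 82.2 came from Slc17a7, a transporter that the medial habenula uses too. Neurod2, a transcription factor of cortical and hippocampal excitatory neurons, was at 8.43 in cKO saline replicate 4 and at most at 1.36 in any other library. The changes that these 2 libraries move most are given with and without them.

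Promoter sequence was available for Scg2, Pcsk1, Homer1, Inhba, Rgs2 and Rgs4, 6 of the 10 genes, in a RefSeq-derived table on GRCm38.p6 that covers 250 bases before and 50 bases after each start. The 150 bases before the RefSeq start are shown for 4 genes, because Scg2 and Pcsk1 hold the complete CRE and because Rgs4 and Inhba are the genes whose levels differed most between groups. Capitals mark the CRE in Scg2 and Pcsk1 and the letters TATAAA in Rgs4 and Inhba. All 4 sequences are written 5′ to 3′ on the strand of the gene.
Scg2, chr1:79440027-79440176, minus strand: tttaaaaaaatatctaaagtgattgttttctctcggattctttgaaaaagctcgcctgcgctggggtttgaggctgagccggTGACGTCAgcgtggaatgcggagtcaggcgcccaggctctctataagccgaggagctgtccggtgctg
Pcsk1, chr13:75089707-75089856, plus strand: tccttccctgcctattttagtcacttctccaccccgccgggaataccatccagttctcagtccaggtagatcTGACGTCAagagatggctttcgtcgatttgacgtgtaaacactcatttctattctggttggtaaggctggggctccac
Rgs4, chr1:169747643-169747792, minus strand: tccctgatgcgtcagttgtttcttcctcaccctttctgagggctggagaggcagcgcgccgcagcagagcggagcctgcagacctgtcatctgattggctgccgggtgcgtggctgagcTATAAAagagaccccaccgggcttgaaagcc
Inhba, chr13:16011701-16011850, plus strand: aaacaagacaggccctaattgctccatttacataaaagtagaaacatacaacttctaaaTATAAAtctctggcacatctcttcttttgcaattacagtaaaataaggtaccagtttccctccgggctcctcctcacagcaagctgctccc

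The complete CRE, TGACGTCA, which reads the same on both strands, began 68 bases before the start of Scg2 and 78 bases before that of Pcsk1. It was present in 2 of the 6 genes and in 1.79% of all 32851 promoters of the table. The CRE core, TGACG on either strand (CGTCA on the other), which also lies inside the complete CRE, was present in 5 of the 6 genes and in 20.8% of all promoters. The letters of the TATA box, TATAAA on either strand, began 31 bases before the start of Rgs4 and 91 bases before that of Inhba. Of all promoters, 13.6% held these letters at any place in the window. GENCODE places the start of Scg2 94 bases, and that of Pcsk1 31 bases, further upstream than RefSeq does. A match describes the letters of the window and was not tested as a binding site.

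The genes differed widely in level. In control saline the mean scaled TPM was 76.7 ± 13.7 (SD, n = 4) for Scg2, 69.4 ± 8.36 for Vgf, 63.2 ± 9.54 for Rgs4 and 58.6 ± 3.88 for Nrn1. These 4 lay above 94.8% or more of the tested genes, and each overlapped its neighbour in that order. Nptx2 followed at 20.0 ± 1.62, apart from Nrn1 above and from Nptx1 below. Nptx1 (8.34 ± 1.41), Homer1 (7.42 ± 0.485) and Rgs2 (6.65 ± 0.598) lay near the middle of the tested genes and overlapped each other in turn. Pcsk1 was lower, at 4.71 ± 0.697, and Inhba was the lowest at 0.547 ± 0.201, above only 0.327% of the tested genes.

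**Figure D1:**
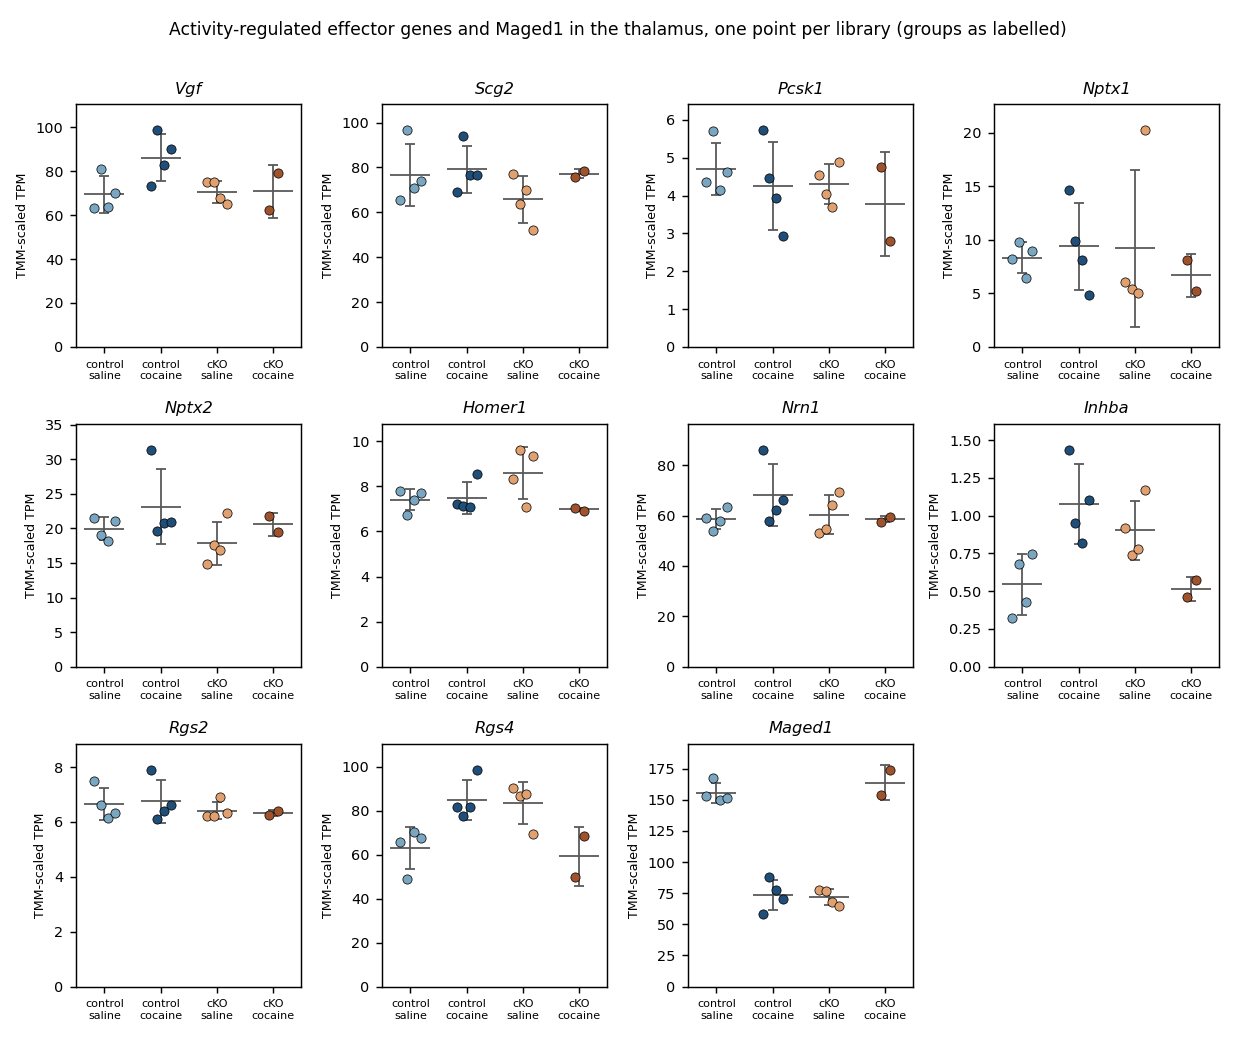
TMM-scaled TPM (vertical axes, from 0) of the 10 genes and of Maged1 in each library, by labelled group. Points are libraries, and the horizontal line and bars are the mean and SD of the group (n = 4, 4, 4 and 2). Rgs4 and Inhba were high in control cocaine and cKO saline and low in control saline and cKO cocaine, while Maged1 was low where they were high.

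When all 6 cocaine libraries were compared with all 8 saline libraries, which uses no genotype label, none of the 10 genes was called. A call required a Benjamini-Hochberg adjusted p under 0.05 in limma together with a log2 fold change of 0.5 or more in either direction, and 2.08% of all tested genes met it in this comparison. By adjusted p alone, with no minimum of fold change, 0 of the 10 genes passed, against 31.6% of all tested genes, and 1 (Vgf) had an unadjusted p under 0.05, as had 5594 of the 13471 tested genes. The log2 fold changes of the 10 genes ran from -0.15 for Pcsk1 to 0.22 for Nptx2, with a median of 0.08 against 0.01 over all tested genes. Cocaine and saline libraries overlapped for all 10 genes, whereas they did not overlap for 10.9% of the tested genes. Their 95% confidence intervals reached from -0.62 to 0.61, and both of these bounds belong to Nptx1. In bulk tissue, fewer cells of a type and less RNA per cell cannot be told apart.

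With the genotype labels, cocaine was compared with saline in each genotype. Among libraries labelled control, 1 of the 10 genes was called higher (Inhba) and 0 lower, against 3.08% of all tested genes called in either direction. Inhba had entered the test through libraries of the groups in which it was high, so its call adds nothing about the set. Rgs4 passed the adjusted p there but missed the fold change minimum. Of the 10 genes, 9 had a positive log2 fold change, against 50.2% of all tested genes, and the median was 0.13 against 0.00. All 8 pan-neuronal markers were positive as well, with a median of 0.26, and 1 of them was called (Nefm, 0.97). Of the 8 thalamic neuron markers, 4 were positive and 4 negative. Under the cKO label, 1 of the 10 genes was called, Rgs4, which was lower, against 3.14% of all tested genes, and the median was -0.12. With 10 genes, a single called gene in either comparison is close to the background and is no result about the genes as a set. Cocaine and saline libraries did not overlap for 2 of the 10 genes under the control label (Inhba and Rgs4), against 25.2% of tested genes, and for 3 under the cKO label (Homer1, Inhba and Rgs4), against 43.8%.

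cKO was also compared with control within each treatment. After saline none of the 10 genes was called, against 0.052% of the tested genes, and none had values without overlap, against 12.6%. After cocaine none was called either, against 0.0371%, and Homer1, Inhba and Rgs4 had values without overlap, against 17.5%. In limma, 3 of the 10 genes had an unadjusted p under 0.05 after saline (Homer1, Inhba and Rgs4) and 3 after cocaine (Vgf, Inhba and Rgs4), against 2256 and 1597 of the 13471 tested genes. Within each of these comparisons, only libraries of the group with higher Inhba had brought it past the filter, so it adds nothing about the set. All 10 log2 differences after cocaine were negative, with a median of -0.18 against 0.00 over all tested genes, of which 48.5% were positive. Negative as well were 7 of 8 pan-neuronal markers, all 6 oligodendrocyte markers and 10 of 12 partners of Homer and metabotropic receptors. By contrast, 11 of 15 immediate early genes and all 7 ependymal markers were positive. The difference between the cocaine effects in the genotypes, the interaction, was called for 1 gene of the 10, Rgs4, against 0.802% of the tested genes. These comparisons share libraries with those of cocaine and saline and are not independent of them.

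**Figure D2:**
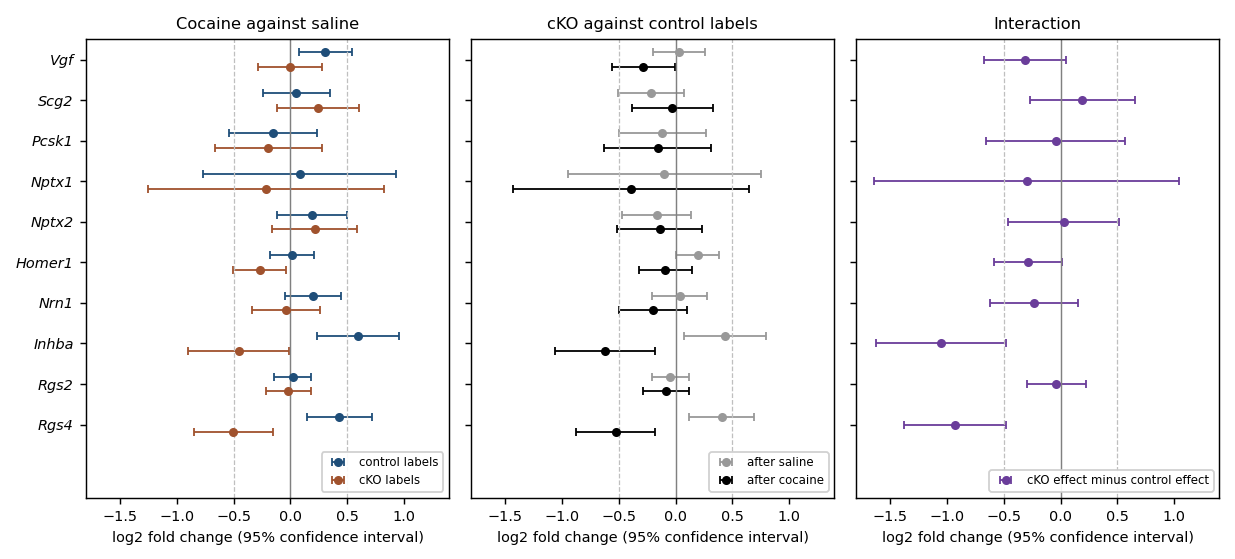
Log2 fold changes of the 10 genes with 95% confidence intervals (horizontal axes, limma) for cocaine against saline by genotype label (left), cKO against control by treatment (middle) and the interaction (right). Dashed lines mark the minimum of 0.5 in either direction. The intervals for Inhba and Rgs4 lie on opposite sides of 0 under the control and the cKO label, and the interval of Nptx1 is the widest.

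Rgs4 (chr1:169741477-169747642, minus strand) encodes a regulator that accelerates GTP hydrolysis by Gq and Gi subunits and so shortens signalling by their receptors. Among controls, saline libraries had a scaled TPM of 65.9, 49.1, 70.2 and 67.6, and libraries labelled control cocaine one of 81.8, 77.6, 81.6 and 98.4. Among cKO mice, saline libraries had 90.5, 86.4, 87.6 and 69.5, and those labelled cKO cocaine had 49.8 and 68.6. Every control cocaine library lay above every control saline library, and both cKO cocaine libraries lay below all cKO saline libraries, the nearest being 68.6 and 69.5. The mean for control cocaine (84.9 ± 9.25 (SD), n = 4) lay near that for cKO saline (83.5 ± 9.48, n = 4), the other group with low Maged1. The mean for cKO cocaine (59.2 ± 13.3, n = 2) lay near that for control saline (63.2 ± 9.54, n = 4), the other group with high Maged1. The cocaine changes by genotype given next hold for the labels as deposited only, and no comparison of groups matched on Maged1 level was tested.

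Under the control label Rgs4 was 1.35-fold higher after cocaine (log2 fold change 0.43 ± 0.13 (SE), n = 4 and 4, limma, Benjamini-Hochberg adjusted p = 0.0311). The exact two-sided permutation test over these libraries gave p = 0.0286, the smallest it can give for 4 against 4. The adjusted p rose to between 0.0511 and 0.0915 without control cocaine replicate 3 or 4 or control saline replicate 1 or 2, and on the TPM as deposited the log2 fold change was 0.06 (limma, Benjamini-Hochberg adjusted p = 0.684). Under the cKO label Rgs4 fell by 0.50 on the log2 scale (SE 0.16, n = 2 and 4, limma, Benjamini-Hochberg adjusted p = 0.0433), to 0.706 of its saline level. The exact two-sided permutation test gave p = 0.133, which is the smallest possible for 2 against 4. This call was lost without cKO cocaine replicate 1 (-0.27, limma, Benjamini-Hochberg adjusted p = 0.368), and likewise without cKO saline replicate 1, 2 or 3, with adjusted p between 0.0768 and 0.0912.

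The cocaine effect on Rgs4 differed between the genotype labels by -0.93 on the log2 scale (95% confidence interval -1.38 to -0.48, limma, Benjamini-Hochberg adjusted p = 0.0489). That call lay close to the threshold. It was lost in 12 of the 14 fits that left out a library, with the adjusted p rising to at most 0.211 (without cKO cocaine replicate 1), and held without control cocaine replicate 1 (0.0479) or cKO saline replicate 4 (0.0405). With both of these left out the difference was -1.03 (limma, Benjamini-Hochberg adjusted p = 0.0363). Over all cocaine and saline libraries, Rgs4 differed by 0.05 (95% confidence interval -0.27 to 0.37, limma, Benjamini-Hochberg adjusted p = 0.829).

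Inhba (chr13:16011851-16031621, plus strand) encodes the inhibin beta A subunit, which pairs with itself to form activin A, a secreted ligand of the TGF-beta family. Saline libraries of controls had a scaled TPM of 0.326, 0.683, 0.431 and 0.747, against 1.43, 0.951, 0.822 and 1.11 under the control cocaine label. Saline libraries of cKO mice had 0.918, 0.740, 0.783 and 1.17, against 0.461 and 0.573 under the cKO cocaine label. The order of the groups was the same as for Rgs4: all control cocaine libraries lay above all control saline libraries, and both cKO cocaine libraries lay below all cKO saline libraries. The group means were 1.08 for control cocaine and 0.903 for cKO saline, and 0.517 for cKO cocaine and 0.547 for control saline.

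Inhba was 1.51-fold higher after cocaine under the control label (log2 fold change 0.60 ± 0.17 (SE), n = 4 and 4, limma, Benjamini-Hochberg adjusted p = 0.0209), on the scale of log2(TPM + 0.5), which understates changes of a gene this low. The exact two-sided permutation test gave p = 0.0286. No control saline or cKO cocaine library reached the 1 TPM of the filter, so these p-values belong to a gene that was tested because of its high groups. With no filter on low values the adjusted p in limma was 0.0229. Without control saline replicate 1 the call was lost (0.48, limma, Benjamini-Hochberg adjusted p = 0.0592), and without control saline replicate 3 it was lost as well (0.55, adjusted p = 0.0563 in the same test). Without control cocaine replicate 1 Inhba no longer reached the filter and could not be tested. On the TPM as deposited the log2 fold change under the control label was 0.37 (limma, Benjamini-Hochberg adjusted p = 0.0642). Under the cKO label it was -0.46 ± 0.20 (SE), n = 2 and 4, which did not pass (limma, Benjamini-Hochberg adjusted p = 0.135). The interaction of -1.05 (95% confidence interval -1.63 to -0.48) missed the threshold as well (limma, Benjamini-Hochberg adjusted p = 0.0698). An antisense gene and a pseudogene on the opposite strand overlap Inhba. The library kit kept strand, but the setting used in counting is not given in the sources used here, so a share of reads from these genes cannot be told apart.

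**Figure D3:**
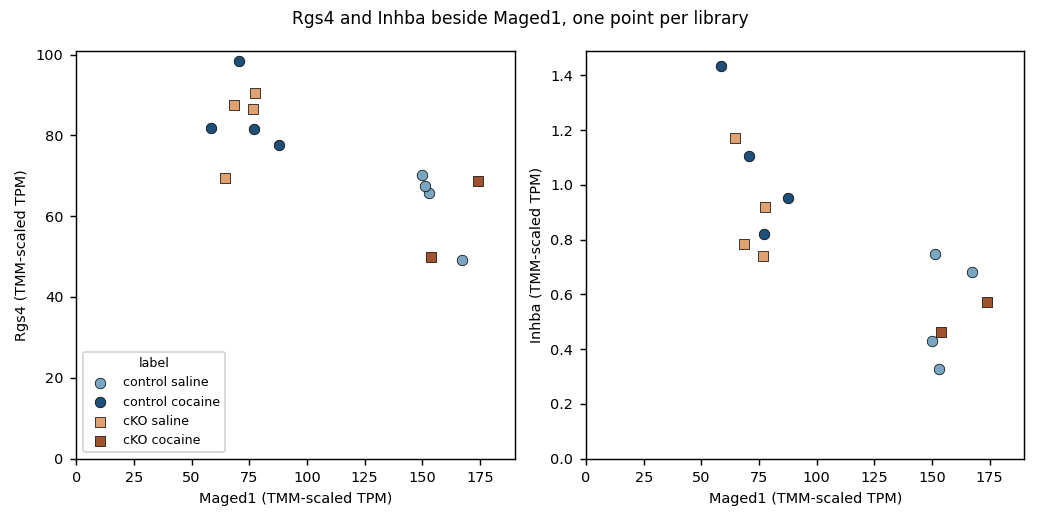
Scaled TPM of Rgs4 (left) and Inhba (right) on the vertical axes against the scaled TPM of Maged1 on the horizontal axes, with 1 point per library, coloured by labelled group. Libraries labelled control cocaine and cKO saline lie at Maged1 values of 58.5 to 87.7, and those labelled control saline and cKO cocaine at 150 to 174, with higher Rgs4 and Inhba in the former groups apart from some overlap.

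Other measures differed between the labelled groups too, though not all in the order of Rgs4 and Inhba. The hypothalamus marker sum ran from 137 to 470 for control saline and from 5.73 to 131 for control cocaine, without overlap. Under the cKO label it ran from 13.4 to 150 after saline and from 38.1 to 77.8 after cocaine. Oxt, which encodes the hypothalamic neuropeptide oxytocin, lay between 87.7 and 182 scaled TPM for control saline and between 0 and 0.233 for control cocaine. It lay between 0.578 and 24.4 for cKO saline and was 8.82 and 52.8 for cKO cocaine, and its interaction was called positive (limma, Benjamini-Hochberg adjusted p = 0.00303), opposite in sign to that of Rgs4. The ependymal marker sum was low in the groups with high Rgs4 and Inhba, at 4.40 to 29.9 for control cocaine and 4.63 to 19.6 for cKO saline, against 28.6 to 31.3 for control saline and 25.7 and 35.1 for cKO cocaine. All 7 ependymal markers had a negative log2 fold change after cocaine under the control label, where 0 were called, and a positive one under the cKO label, where 1 was called (Rsph1). All 6 oligodendrocyte markers were positive under the control label, where 1 was called (Mobp). Under the cKO label 4 of them were negative and 2 positive, and in the interaction all 6 were negative, with 0 called.

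The summed thalamic neuron markers overlapped between control groups (477 to 604 after saline, 511 to 678 after cocaine), but single markers moved in opposite directions. Of the 8, Prkcd (0.74) and Lef1 (0.54) were called higher and Calb2 (-0.69) lower under the control label, and Gbx2 and Calb2 (both 0.95) higher under the cKO label. Calb2, which encodes the calcium-binding protein calretinin, ran opposite to Rgs4 and Inhba, with 120 to 136 scaled TPM for control saline, 66.2 to 111 for control cocaine, 44.6 to 103 for cKO saline and 128 and 129 for cKO cocaine, and its interaction was called (1.64, limma, Benjamini-Hochberg adjusted p = 0.0392). The part of such tissue and cell type differences in the values of Rgs4 and Inhba was not tested.

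Rgs2 (chr1:143999338-144004161, minus strand), a related regulator that acts mainly on Gq, was the steadiest of the 10 genes. Control libraries had a scaled TPM of 7.50, 6.62, 6.15 and 6.34 after saline and of 7.90, 6.12, 6.38 and 6.63 after cocaine. Libraries with the cKO label had 6.23, 6.22, 6.90 and 6.31 after saline and 6.24 and 6.40 after cocaine. All 4 groups overlapped. The log2 fold change over all libraries was 0.01 (95% confidence interval -0.11 to 0.13), and its residual SD within groups of 0.11 log2 was near the median of all tested genes (0.11).

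Vgf (chr5:137026392-137033351, plus strand) encodes a granin-like precursor that is sorted into dense-core granules and cut into several neuropeptides. In controls the scaled TPM was 63.0, 80.9, 63.5 and 70.1 after saline and 73.1, 98.5, 82.9 and 89.9 after cocaine. In cKO libraries it was 74.8, 74.9, 67.9 and 64.9 after saline, and 62.3 and 79.3 after cocaine. Control cocaine libraries were mostly higher than control saline libraries, but replicate 1 of the former lay below replicate 2 of the latter.

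The log2 fold change of Vgf under the control label was 0.31 ± 0.11 (SE), just short of the threshold (limma, Benjamini-Hochberg adjusted p = 0.0513, exact two-sided permutation p = 0.0571). Without control cocaine replicate 1 it was 0.38 (limma, Benjamini-Hochberg adjusted p = 0.0177). With cKO saline replicate 4 left out as well it was 0.38 (0.0193 in the same test). Both values were still under the fold change minimum. The log2 fold change under the cKO label was -0.00 (95% confidence interval -0.29 to 0.28). Over all libraries Vgf had the smallest unadjusted p of the 10 genes, at 0.0411 (log2 fold change 0.20 ± 0.09 (SE), limma, Benjamini-Hochberg adjusted p = 0.103).

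Scg2 (chr1:79434669-79440120, minus strand) encodes secretogranin II, a granule protein and the precursor of secretoneurin. Controls had a scaled TPM of 65.6, 96.5, 70.8 and 73.9 after saline and of 69.0, 94.0, 76.8 and 76.8 after cocaine. The cKO libraries had 77.3, 63.8, 69.9 and 52.2 after saline, and 75.7 and 78.6 after cocaine. The groups overlapped in every comparison. The log2 fold change after cocaine was 0.05 under the control label (95% confidence interval -0.24 to 0.34) and 0.24 under the cKO label (-0.11 to 0.60). It was 0.11 without control cocaine replicate 1 and 0.14 without cKO saline replicate 4. In each group the library with the highest Scg2 had the highest hypothalamus marker sum. These sums were 470 for control saline, 131 for control cocaine, 150 for cKO saline and 77.8 for cKO cocaine. The lowest Scg2 went with the lowest sum in control cocaine (5.73) and cKO saline (13.4), but not in control saline. Vgf was highest in the same libraries except in cKO saline. The part of hypothalamic RNA in these values was not tested.

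Pcsk1 (chr13:75089826-75134861, plus strand) encodes a prohormone convertase that cuts such precursors inside the granule. For controls its scaled TPM ran from 4.14 to 5.71 after saline and from 2.93 to 5.72 after cocaine. The cKO libraries ran from 3.70 to 4.90 after saline, with 4.75 and 2.81 after cocaine. The lowest values came from a library in each cocaine group, and the remaining cocaine libraries lay within or close to the saline range. Its log2 fold change was negative under both labels (-0.15 and -0.20) and did not pass in either (limma, Benjamini-Hochberg adjusted p = 0.566 and 0.572). Without control cocaine replicate 1 the former was -0.29, and without cKO saline replicate 4 the latter was -0.14.

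Nptx1 (chr11:119538719-119547753, minus strand) and Nptx2 (chr5:144545902-144557478, plus strand) encode secreted pentraxins that gather AMPA receptors at excitatory synapses. The scaled TPM of Nptx1 in controls was 8.25, 9.75, 6.44 and 8.93 after saline and 14.7, 9.86, 8.16 and 4.88 after cocaine. In libraries with the cKO label it was 6.07, 5.42, 5.07 and 20.2 after saline and 8.08 and 5.26 after cocaine. Nptx1 varied more within groups than any other of the 10 genes, and more than 97.6% of all tested genes, with a residual SD of 0.63 log2.

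The highest Nptx1 values were those of cKO saline replicate 4 and control cocaine replicate 1, the libraries with the highest cortex and hippocampus marker sums. In control cocaine replicate 1, Slc17a7 made up 82.2 of that sum of 98.6. Neurod6 and Emx1, other markers of this list, were at 0.291 and 0 there, against 1.32 and 1.37 in cKO saline replicate 4. Its log2 difference between cKO and control after saline was -0.10 (95% confidence interval -0.95 to 0.75) and became -0.54 without cKO saline replicate 4, with no call in either case (limma, Benjamini-Hochberg adjusted p = 0.936 and 0.35). After cocaine under the cKO label its log2 fold change was -0.22, and without cKO saline replicate 4 it was 0.23. Under the control label it was 0.08, and -0.16 without control cocaine replicate 1. The part of cortical or hippocampal RNA in these values was not tested.

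Nptx2 in controls had a scaled TPM of 21.5, 19.1, 18.1 and 21.1 after saline and of 31.3, 19.6, 20.8 and 20.9 after cocaine. With the cKO label the values were 14.9, 17.6, 16.8 and 22.2 after saline and 21.8 and 19.4 after cocaine. Control cocaine replicate 1, the library with the highest habenula marker sum, stood above all others, and cKO saline replicate 4 was the highest of its group. The log2 fold change under the control label was 0.19 ± 0.14 (SE) with control cocaine replicate 1 and 0.04 without it, and neither passed (limma, Benjamini-Hochberg adjusted p = 0.362 and 0.835). The value for the cKO label was 0.21, and 0.32 without cKO saline replicate 4.

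Nrn1 (chr13:36725361-36735131, minus strand) encodes neuritin, a protein anchored on the outer membrane that promotes growth of neurites. In control libraries its scaled TPM ran from 54.0 to 63.4 after saline and from 57.7 to 85.9 after cocaine. Under the cKO label it ran from 53.1 to 69.3 after saline and was 57.6 and 59.4 after cocaine. The highest value again belonged to control cocaine replicate 1. Its log2 fold change after cocaine was 0.20 ± 0.11 (SE) under the control label and -0.04 ± 0.14 (SE) under the cKO label, and neither passed (limma, Benjamini-Hochberg adjusted p = 0.216 and 0.885). Without control cocaine replicate 1 the former was 0.084, and without cKO saline replicate 4 the latter was 0.033. Fars2 and an antisense gene on the opposite strand overlap Nrn1, with the same limit as for Inhba.

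Across the 10 genes, control cocaine replicate 1 was the highest of its group for Pcsk1, Nptx1, Nptx2, Nrn1, Inhba and Rgs2 and the lowest for Vgf and Scg2. In cKO saline, replicate 4 was the highest for Pcsk1, Nptx1, Nptx2, Nrn1 and Inhba and the lowest for Vgf, Scg2 and Rgs4. Slc17a7, the vesicular transporter of cortical and hippocampal glutamatergic neurons and of the medial habenula, was 82.2 and 73.4 in these libraries.

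**Figure D4:**
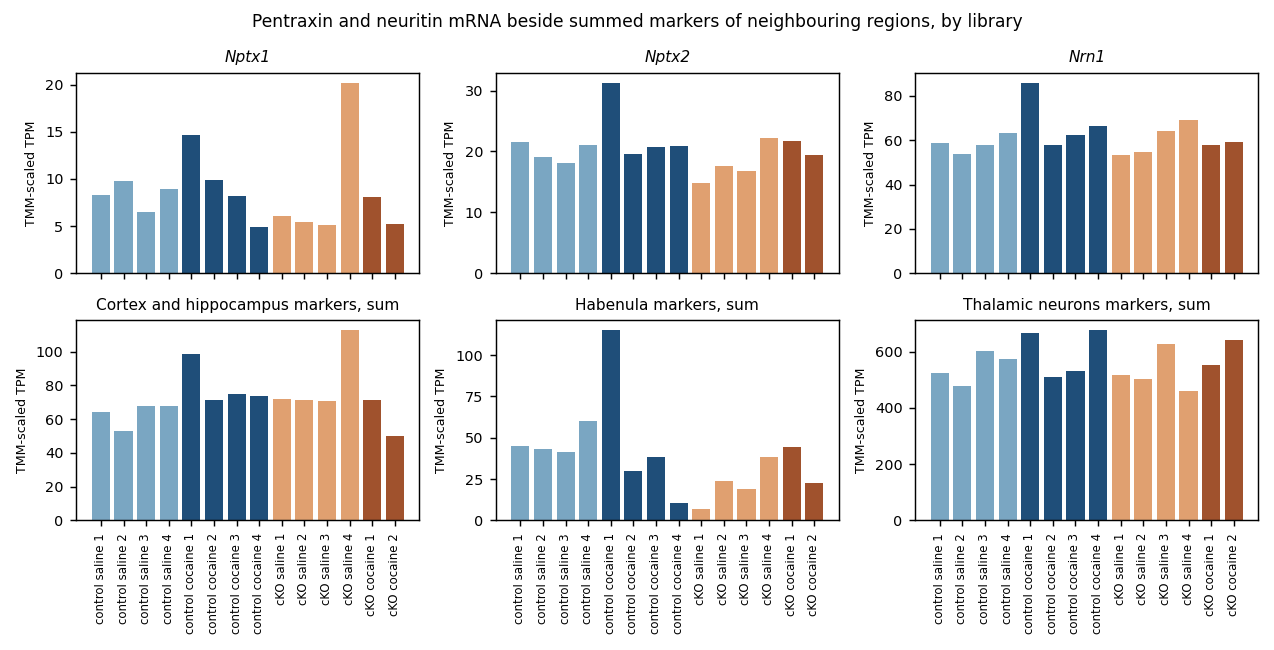
Scaled TPM (vertical axes, from 0) of Nptx1, Nptx2 and Nrn1 and the summed scaled TPM of 3 marker lists in each of the 14 libraries (bars, coloured by labelled group). Nptx1 and the cortex and hippocampus sum are highest in cKO saline replicate 4 (20.2 and 113), and Nptx2, Nrn1 and the habenula sum in control cocaine replicate 1 (31.3, 85.9 and 115).

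Homer1 (chr13:93299635-93405129, plus strand) encodes a postsynaptic scaffold that links group I metabotropic glutamate receptors to other proteins. Activity is known to induce its short isoform, Homer1a, which the values per gene cannot separate from the long isoforms. Control mice had a scaled TPM of 7.81, 6.73, 7.41 and 7.71 after saline and of 7.20, 7.13, 7.07 and 8.57 after cocaine. Mice with the cKO label had 8.33, 9.61, 7.09 and 9.36 after saline and 7.04 and 6.93 after cocaine. Both cKO cocaine libraries lay below all others except control saline replicate 2, and by a narrow margin. The log2 fold change under the cKO label was -0.27 (95% confidence interval -0.51 to -0.04), which did not pass (limma, Benjamini-Hochberg adjusted p = 0.0925). It was 0.01 (-0.18 to 0.20) under the control label.

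Lists of related genes were set beside the 10 genes: 134 distinct genes in 8 lists, of which 123 were tested. Over all cocaine and saline libraries 3 were called higher and 0 lower (2.44%, against 2.08% of all tested genes). Under the control label 5 were called higher and 0 lower (4.07%, against 3.08% of all tested genes). Under the cKO label 10 were called higher and 2 lower (9.76%, against 3.14%). The interaction was called for 3 in the positive and 4 in the negative direction (5.69%, against 0.802%), and no list gene was called between genotypes within a treatment. The lists were chosen with earlier results of these data known, so these shares describe the lists and are not a test of them.

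Among 20 immediate early genes, 15 were tested, and over all libraries 2 were called, both higher after cocaine. Egr1 was 7.45 to 9.96 scaled TPM in the 8 saline libraries (median 8.37) and 12.3 to 17.4 in the 6 cocaine libraries (median 13.2), without overlap (log2 fold change 0.65 ± 0.07 (SE), limma, Benjamini-Hochberg adjusted p = 2.01e-05). On the TPM as deposited, Egr1 overlapped, with 7.96 to 10.9 in saline and 10.4 to 15.2 in cocaine libraries. Fos was 1.55 to 5.49 in saline and 3.51 to 8.43 in cocaine libraries, with overlap (0.69 ± 0.23 (SE), limma, Benjamini-Hochberg adjusted p = 0.0353). The median over the 15 genes was 0.22, against 0.08 over the 10 effector genes. Under the control label 1 was called (Egr1, 0.65), and under the cKO label 4 were called higher, among them Egr1 (0.64), Nr4a1 (0.61) and Fos (1.28). Of 20 other activity-regulated genes tested, 2 were called higher under the cKO label, Sik1 (0.61), a salt-inducible kinase, and Gadd45g (0.64), a gene of DNA repair and demethylation, and 0 in the other comparisons.

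All 14 genes of the dense-core granule list were tested. Chgb, which encodes chromogranin B, was 34.2 to 40.1 scaled TPM in the saline libraries and 60.5 to 77.0 in the cocaine libraries, without overlap. It was called higher over all libraries (0.89 ± 0.06 (SE), limma, Benjamini-Hochberg adjusted p = 1.22e-07) and under each genotype label (0.92 and 0.85). Pcsk1n, an inhibitor of the convertase encoded by Pcsk1, was called higher under the cKO label (0.60), and the interaction was positive (0.67).

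Of 12 pentraxin and AMPA receptor partners, Nptxr, the pentraxin receptor, was called higher under the cKO label (1.30 ± 0.24 (SE), limma, Benjamini-Hochberg adjusted p = 0.00322) and in the interaction (1.64). The cKO libraries had a scaled TPM of 28.4 to 55.3 after saline and of 88.0 and 102 after cocaine, and the control libraries one of 52.9 to 81.2 after saline and of 43.4 to 64.6 after cocaine. Nptxr was thus highest in the 2 cKO cocaine libraries, whereas neither Nptx1 nor Nptx2 was. Cnih3, an auxiliary subunit of AMPA receptors, was called higher under the control label (0.62) and negative in the interaction (-1.05), and Cacng3, another auxiliary subunit, was called higher under the cKO label (0.68). Gria3, an AMPA receptor subunit, was called negative in the interaction (-0.62).

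Of the remaining lists, few genes were called. Among 12 Homer and metabotropic receptor partners, Shank3, a scaffold, was called higher under the control label (0.57) and Homer2 negative in the interaction (-0.59). Of 14 activin pathway genes tested, Acvr1c, a type I receptor, was called lower under the cKO label (-0.55). Of 22 other RGS genes and G protein subunits, Rgs16 was called higher under the control label (0.63), with 28.1 to 37.9 scaled TPM in controls after saline and 48.4 to 69.2 after cocaine. Camk4, a kinase that phosphorylates CREB, was called lower under the cKO label (-0.52) and negative in the interaction (-0.82), among 15 tested genes of CREB and neurotrophin signalling.

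**Figure D5:**
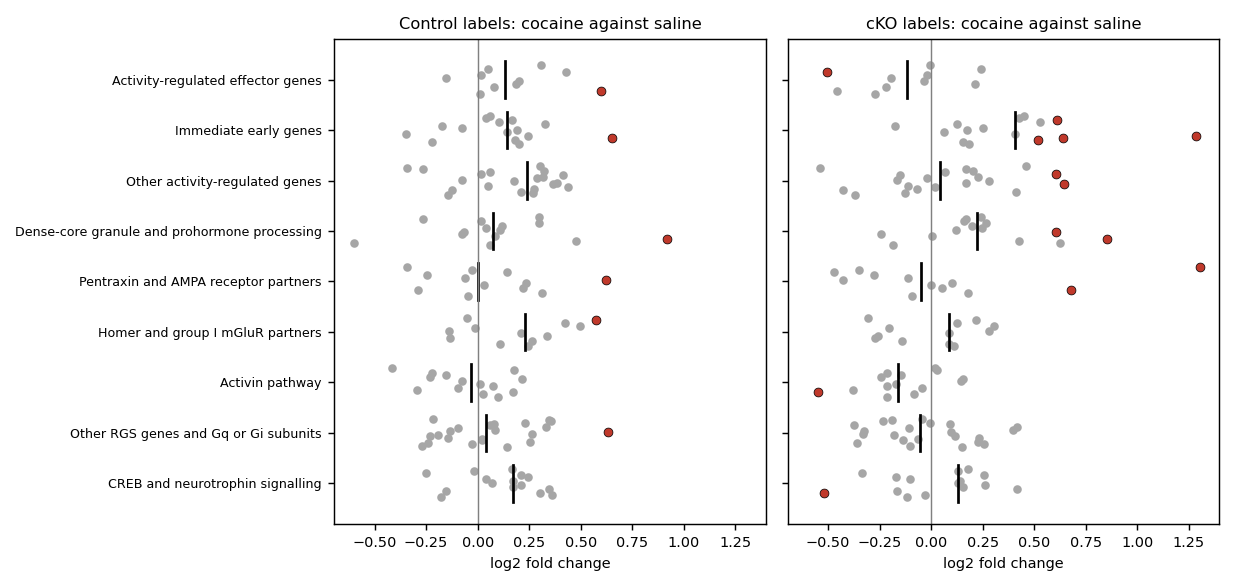
Log2 fold changes after cocaine (horizontal axes) under the control label (left) and the cKO label (right), by gene list (vertical axis). Each point is a tested gene, called genes are red, and the black line is the median of the list, which for the 10 effector genes was 0.13 and -0.12.

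Over all libraries, the direction of most changes of the effector genes depended on whether the TPM were scaled. Between ways of scaling it depended less: quantile scaling turned the sign of 2 of the 60 member changes, and median-of-ratios scaling kept all 60. TMM factors were 0.807 to 0.939 in cocaine libraries and 1.07 to 1.22 in saline libraries, without overlap. On the TPM as deposited, the median log2 fold change of all tested genes over all cocaine and saline libraries was -0.34, and the 7 effector genes with a positive change after scaling all had a negative one. Inhba (-0.06), Nptx2 (-0.16), Vgf (-0.19), Scg2 (-0.23) and Nrn1 (-0.27) then lay above that median, Rgs4 (-0.33), Rgs2 (-0.35) and Nptx1 (-0.37) lay close to it, and Homer1 (-0.48) and Pcsk1 (-0.49) lay below it. Homer1 and Pcsk1 passed the adjusted p on that scale (limma, Benjamini-Hochberg adjusted p = 6.49e-05 and 0.00371), as did Nrn1 (0.0106) and Rgs2 (0.000151), and none reached the fold change minimum.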

How the data were processed

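Thalamic RNA depleted of ribosomal RNA was sequenced in 14 libraries as stranded paired-end reads. According to the study's methods and the submitters' processing notes, the authors mapped reads to GRCm38.p4 with STAR 2.5.3a, quantified them with Salmon and summarized them with tximport. The authors deposited TPM per gene symbol for each library. In 2 tables the deposited TPM have decimal commas, recorded as another unit and read as decimal points. TPM keeps no depth, so the depth of each library and its counting error are unknown from these values.

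Here TPM were divided by unweighted TMM factors (30% of log ratios and 5% of means trimmed), computed over the 13471 genes that reached 1 TPM in 3 or more libraries. Then 0.5 was added and log2 was taken. All tested genes entered limma 3.58.1 (R 4.3.3) with an intensity trend, either with treatment as the only factor or with the 4 groups in 1 model. P-values were adjusted by Benjamini-Hochberg over all tested genes. Exact two-sided permutation tests compared libraries for single genes. Values were read and plotted in Python 3.11.15 (pandas 2.3.3, numpy 2.4.6, scipy 1.17.1, matplotlib 3.10.9). Gene coordinates come from GENCODE M21 (GRCm38) and promoters from RefSeq (GRCm38.p6).

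Tested on simulated data for control cocaine against control saline, in which 200 of 13310 genes were given a log2 change of 1, the procedure recovered 197 of them (98.5%) and made 3 false calls. The changed genes all had a mean log2 value above 1, whereas that of Inhba was 0.34, and the simulated noise was independent between genes. The largest change of the 10 genes in that comparison was 0.60, so the share recovered does not describe changes of their size.

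Groups follow the sample titles, 1 cKO cocaine sample was not analysed here, and nothing in the labels says whether the libraries of a group came from separate mice, pools or extractions, so p-values measure the spread between these libraries. The members and the gene and marker lists were chosen with earlier results of these data known. Named were all members, Maged1 and, of each gene list, the called genes, at most 3 per list and comparison with the smallest adjusted p. Marker genes and the sum of each marker list are given where they touch a result. Alternatives covered scaling, pseudocount, filter, trend, replicate block, fold change minimum, genotype tags, the compared groups alone, and libraries left out. A search for markers led to an alternative without both control cocaine replicate 1 and cKO saline replicate 4, chosen after seeing the data. Other libraries with a high sum of other tissue stayed in. They were control saline replicate 1 (choroid plexus, 1456), control saline replicate 2 (hypothalamus, 470) and cKO saline replicate 2 (striatum, 81.9).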

Additional observations from a re-analysis of the deposited data

Results flagged for a closer look

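In 4 of the 30 pairs of a gene and a group of 4 libraries, a single library lay far from the others of its group by Dixon's test, where chance gives about 1 in 20. Nptx1 was at 20.2 scaled TPM in cKO saline replicate 4, against 5.07 to 6.07 in the other 3. Nptx2 was at 31.3 in control cocaine replicate 1, against 19.6 to 20.9. Homer1 was at 8.57 in control cocaine replicate 4, against 7.07 to 7.20. Rgs2 was at 6.90 in cKO saline replicate 3, against 6.22 to 6.31.

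The cocaine effect on Rgs4 differed between the genotype labels, with an interaction of -0.93 on the log2 scale (limma, Benjamini-Hochberg adjusted p = 0.0489). It was positive in all 4 control cocaine libraries and negative in both cKO cocaine libraries relative to the saline libraries of the same label, and the labels of these cocaine libraries are those that Maged1 contradicts.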

How the results depend on the processing

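Of 1341 values of the 60 member changes under the alternatives, 1205 kept their sign and their side of the call, 34 lost it, 3 gained it and 99 changed sign, and the causes were not tested. Over all libraries, and between genotypes after saline or after cocaine, 0 members were called under every alternative run. Under the control label the count of 1 was 0 on TPM as deposited, with a pseudocount of 1, with a mean of at least 5 TPM, with the tags, with the 10 agreeing libraries, with the compared groups alone and with both libraries left out, and 2 with no fold change minimum. Under the cKO label it was 3 on TPM as deposited (Homer1, Inhba and Rgs4) and 0 with a pseudocount of 1, with no filter, with no trend, with the tags, with the 10 agreeing libraries and with the compared groups alone. The interaction count was 0 on TPM as deposited, with no filter, with no trend, with the tags and with the 10 agreeing libraries. Without a library in turn, each of these 3 counts ranged from 0 to 1. Several alternatives that use fewer libraries, and the filter at a mean of 5 TPM, left Inhba untested.

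Deviations of libraries with the same replicate number had a mean correlation of -0.01 (18 pairs, -0.16 to 0.10). For different numbers it was 0.0046 (54 pairs, -0.21 to 0.24). Whether libraries shared a batch in another way was not tested. With the number as a block, the call of Rgs4 was lost under the cKO label (-0.46, limma, Benjamini-Hochberg adjusted p = 0.132) and in the interaction (-0.89, adjusted p = 0.149), so that 0 members were called in each, and Nrn1 became 0.012 under the cKO label.

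Log2 changes that took the opposite sign were the following. On the TPM as deposited, Vgf was -0.19, Scg2 was -0.23, Nptx2 was -0.16, Nrn1 was -0.27, Inhba was -0.060, Rgs2 was -0.35 and Rgs4 was -0.33 over all libraries. Vgf was -0.062, Scg2 was -0.32, Nptx1 was -0.27, Nptx2 was -0.18, Homer1 was -0.34, Nrn1 was -0.17 and Rgs2 was -0.33 under the control label. Scg2 was -0.15 and Nptx2 was -0.17 under the cKO label. Rgs2 was 0.0039 between genotypes after saline. Scg2 was 0.0041 between genotypes after cocaine. With control cocaine replicate 1 and cKO saline replicate 4 left out, Nptx1 was 0.012 and Rgs2 was -0.042 over all libraries. Nptx1 was -0.16 and Rgs2 was -0.054 under the control label. Nptx1 was 0.23 and Nrn1 was 0.034 under the cKO label. Nrn1 was -0.033 between genotypes after saline. Nptx2 was 0.011 between genotypes after cocaine. Pcsk1 was 0.16, Nptx1 was 0.39 and Rgs2 was 0.028 in the interaction. With the 10 agreeing libraries, Scg2 was -0.026, Nptx1 was -0.042 and Rgs2 was -0.071 under the control label. Vgf was 0.069 under the cKO label. Vgf was -0.097 and Nptx1 was 0.19 between genotypes after saline. Pcsk1 was 0.046, Nptx2 was -0.078 and Rgs2 was 0.0014 in the interaction. With the genotype from the tag, Homer1 was -0.10 under the control label. Vgf was 0.078 under the cKO label. Vgf was -0.13, Nptx1 was 0.28, Nptx2 was 0.10 and Homer1 was -0.035 between genotypes after saline. Nptx2 was -0.24 in the interaction. Under quantile scaling, Rgs4 was -0.029 over all libraries. Scg2 was -0.044 under the control label. As the mean of both genotypes in the 4-group model, Rgs2 was -0.00063 and Rgs4 was -0.036 over all libraries.

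With a library left out in turn, changes crossed 0 as follows. Rgs2 ranged from -0.036 to 0.033, Nptx1 ranged from -0.17 to 0.18 and Rgs4 ranged from -0.027 to 0.17 over all libraries. Nptx1 ranged from -0.16 to 0.34, Rgs2 ranged from -0.054 to 0.062, Scg2 ranged from -0.034 to 0.17 and Homer1 ranged from -0.050 to 0.037 under the control label. Vgf ranged from -0.18 to 0.17, Pcsk1 ranged from -0.53 to 0.14, Nptx1 ranged from -0.51 to 0.23, Rgs2 ranged from -0.037 to 0.0063 and Nrn1 ranged from -0.093 to 0.033 under the cKO label. Vgf ranged from -0.017 to 0.11, Rgs2 ranged from -0.080 to 0.0059, Nrn1 ranged from -0.033 to 0.094 and Nptx1 ranged from -0.54 to 0.089 between genotypes after saline. Nptx2 ranged from -0.22 to 0.011, Scg2 ranged from -0.090 to 0.058 and Pcsk1 ranged from -0.49 to 0.17 between genotypes after cocaine. Pcsk1 ranged from -0.37 to 0.29, Rgs2 ranged from -0.089 to 0.035, Nptx2 ranged from -0.055 to 0.18 and Nptx1 ranged from -0.58 to 0.15 in the interaction.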

Other observations

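The remaining marker lists showed the following summed scaled TPM. Astrocyte markers ran from 344 to 409, microglia markers from 37.5 to 46.3 and endothelial markers from 42.7 to 53.0 over all libraries. For controls, pan-neuronal markers ran from 1039 to 1179 after saline and from 1175 to 1430 after cocaine, and under the cKO label from 1186 to 1313 after saline, with 1225 and 1301 after cocaine. Oligodendrocyte markers were 1409 to 1677 in control saline and 1558 to 2443 in the other groups. The choroid plexus sum was 1456 in control saline replicate 1, against 2.66 to 55.3 elsewhere, and that library was the lowest of its group for Vgf, Scg2 and Inhba. The striatum sum was 81.9 in cKO saline replicate 2, against 31.0 to 45.1 elsewhere, and that library was the highest of its group for Vgf and Homer1.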
